A study of Mus musculus with 8 samples.

Results

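Haemoglobin of the mouse changes its globin chains during development, and the members described here are the embryonic globins Hbb-bh1, Hbb-y and Hba-x, the globin chaperone gene Ahsp and the switch factors Klf1 and Bcl11a. They were taken as all probe sets that the array annotation pairs with exactly 1 of these 6 symbols. A probe set is the group of array probes that is summarised into 1 value. The rule found 15 probe sets of 5 of the 6 genes, among 45037 probe sets and 18193 genes in all: 3 each for Hbb-bh1 and Hbb-y, 7 for Bcl11a, and 1 each for Hba-x and Klf1. No probe set was paired with Ahsp in the annotation used here, so the chaperone was not analysed here. The members were selected on their values in the contrast of knockout against wild type in these same 8 livers, so their differences are given as a description, with no test. Counts of members past a threshold are given beside the share over all probe sets, and nothing is read from them.

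The livers came from 4 mice with the genotype Mfp2 -/- (knockout, KO) and 4 wild type (WT) mice, all aged 2 days, with 1 Affymetrix array for each liver and no treatment named in the labels. Mfp2, encoded by Hsd17b4, is an enzyme of peroxisomal fatty acid and bile acid precursor breakdown. The sources used here do not give the strain, the litters or whether the deletion was confined to some cells. Values are log2 values made with RMA, and whole liver was measured, with its hepatocytes and blood-forming cells together. In whole liver, fewer red cell precursors and less RNA in each of them cannot be told apart, and this holds for each difference below.

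In the mouse, the first red cells come from the yolk sac and carry embryonic globins: Hba-x is the zeta-like alpha chain, and Hbb-y and Hbb-bh1 are the embryonic beta-like chains. Red cells made later in the fetal liver carry adult alpha and beta chains. Klf1 is an erythroid zinc finger factor that binds CACCC elements, activates adult beta globin and many other red cell genes, and also activates Bcl11a, whose product keeps embryonic beta-like globin genes silent in later red cells. Bcl11a is also needed for B cells. The liver of the newborn mouse still makes blood.

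Promoters of Hbb-y, Hba-x and Klf1 are shown beside that of the adult beta globin gene Hbb-bs. They hold different sets of matches to the motifs searched. The sequences are the 250 bases before the gene start from RefSeq, build GRCm38.p6, and the promoter table held 4 of the 6 members: Hbb-y, Hba-x, Klf1 and Bcl11a. Capitals mark matches on either strand to 1 of 5 motifs. They are CCNCNCCC, of the CACCC type bound by Klf1, then AGATAA for the GATA factors, further CCAAT for the CCAAT box, also ATAAAA for the TATA box, and last TGACCA, the motif known for Bcl11a. Hbb-y lies at chr7:103853208-103853457 on the minus strand, Hba-x at chr11:32276350-32276599 on the plus strand, Klf1 at chr8:84901732-84901981 on the plus strand, and Hbb-bs at chr7:103827929-103828178 on the minus strand.
Hbb-y: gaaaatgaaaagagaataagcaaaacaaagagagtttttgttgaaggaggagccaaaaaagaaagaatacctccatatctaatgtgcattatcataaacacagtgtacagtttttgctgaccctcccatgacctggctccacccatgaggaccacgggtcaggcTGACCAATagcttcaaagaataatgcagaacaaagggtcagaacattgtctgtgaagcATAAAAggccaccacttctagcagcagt
Hba-x: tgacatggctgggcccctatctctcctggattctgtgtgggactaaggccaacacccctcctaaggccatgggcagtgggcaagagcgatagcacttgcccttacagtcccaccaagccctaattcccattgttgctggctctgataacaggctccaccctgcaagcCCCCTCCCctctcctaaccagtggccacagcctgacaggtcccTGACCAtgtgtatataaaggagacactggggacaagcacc
Klf1: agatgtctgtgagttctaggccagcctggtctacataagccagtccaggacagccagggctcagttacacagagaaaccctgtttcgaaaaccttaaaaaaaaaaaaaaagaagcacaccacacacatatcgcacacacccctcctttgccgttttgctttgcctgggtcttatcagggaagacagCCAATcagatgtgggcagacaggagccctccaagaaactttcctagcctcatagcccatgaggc
Hbb-bs: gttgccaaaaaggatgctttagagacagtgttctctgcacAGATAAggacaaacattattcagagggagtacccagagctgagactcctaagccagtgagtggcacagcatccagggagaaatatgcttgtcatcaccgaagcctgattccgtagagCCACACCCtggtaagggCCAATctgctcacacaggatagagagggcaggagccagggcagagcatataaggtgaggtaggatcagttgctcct

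In Hbb-y the TGACCA match, 86 to 81 bases before the start, shares its last letters with the CCAAT match, 83 to 79 bases before it, and an ATAAAA match lies 28 to 23 bases before it. Hbb-y had no CCNCNCCC match in this window, whereas the adult Hbb-bs had one 93 to 86 bases before its start. Hba-x held a CCNCNCCC match 83 to 76 bases and a TGACCA match 40 to 35 bases before its start. Klf1 held a single CCAAT match. Bcl11a, whose promoter is not shown, held CCNCNCCC matches between 176 and 19 bases before its start. Adult Hbb-bt also held a CCNCNCCC match, whereas adult Hba-a1 and Hba-a2 held CCAAT matches only. A CCNCNCCC match thus did not separate adult from embryonic globins. Of all 32851 promoters of this length in the table, 45.9% held the CACCC-type motif, 9.99% the GATA motif, 33.8% the CCAAT box, 17.0% the TATA-type motif and 11.4% the Bcl11a motif. A match is a run of letters and not a shown site, and a missing match says only that these letters are not in this window.

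Transcripts of the targeted gene Hsd17b4 lay between 3.25 and 4.29 in KO livers and between 8.15 and 8.97 in WT livers, so each array matched its label. Across all probe sets, Pearson correlations of arrays were 0.983 to 0.994 inside a group and 0.976 to 0.989 from one group to the other. KO 1, KO 2 and WT 3 were high in Xist and low in Y-linked transcripts, whereas the other 5 livers showed the opposite. Over all probe sets 254 were lower and 89 higher in KO livers at an adjusted p under 0.05 (limma, Benjamini-Hochberg). That total of 343 was 9 without WT 4, 13 without KO 4 or WT 3, 38 without KO 3, 161 without WT 1 and 177 without KO 1.

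All 3 probe sets of Hbb-bh1 were lower in KO livers, by 2.49-fold to 3.82-fold. In none of the 3 did the groups overlap. Klf1 was lower by 1.88-fold without overlap, Bcl11a was lower in 6 of 7 probe sets with small differences, and Hbb-y and Hba-x lay near the floor of the arrays in both groups. Among the 15 member probe sets 14 had lower means in KO livers, where 45.9% of all probe sets did (46.7% of all genes). Of the 15, 3 passed in the lower direction, where 0.564% of all probe sets did, and 0 in the higher direction, where 0.198% did. The count of 3 was 1 without KO 4, WT 3 or WT 4, 2 without KO 1 or KO 3, and 4 without KO 2. In 6 of the 15 all KO values lay below all WT values, which held for 3.81% of all probe sets. Since this contrast was known when the members were chosen, nothing is read from these counts and shares.

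**Figure D1:**
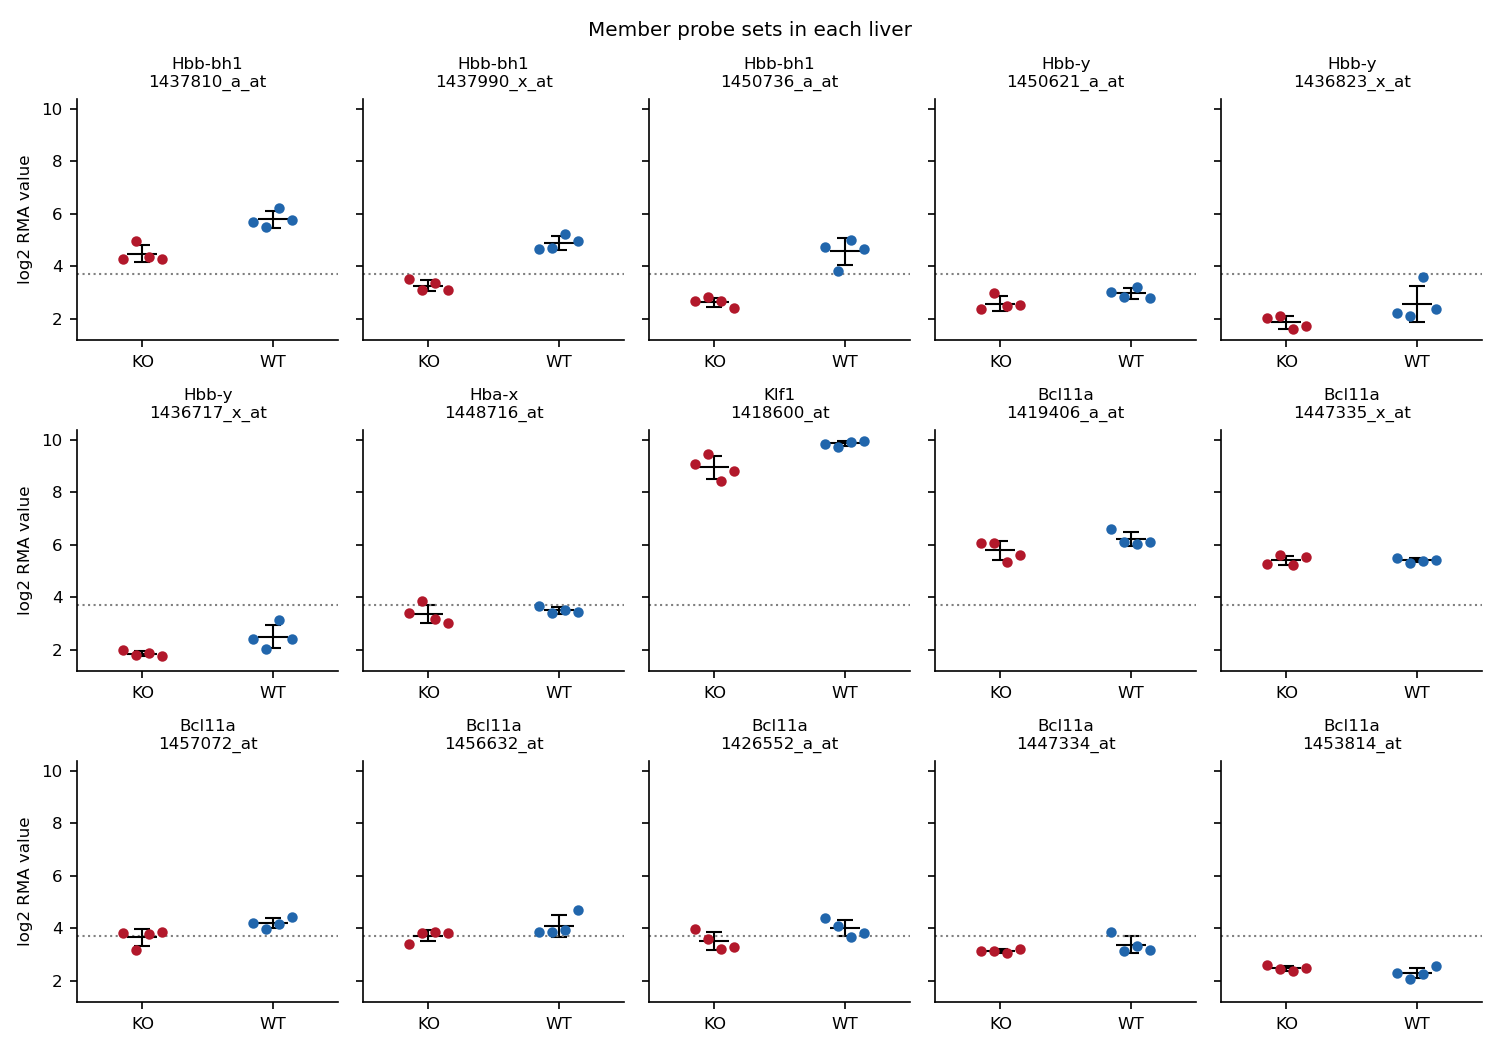
Values of the 15 member probe sets in each liver (vertical axis, log2 RMA value), KO left and WT right in each panel. Points are livers, black bars the mean and SD of 4, and the dotted line is the median of all probe set means, 3.70. The 3 Hbb-bh1 panels and the Klf1 panel show groups that do not overlap, while 2 of the 3 Hbb-y panels and the Hba-x panel show groups that do.

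Hbb-bh1, the beta-like chain of the first embryonic red cells, had its brightest values at probe set 1437810_a_at. There it measured 4.27, 4.95, 4.36 and 4.27 in KO livers 1 to 4, and 5.66, 5.50, 6.23 and 5.74 in WT livers 1 to 4. KO 2 was the highest KO liver and WT 2 the lowest WT liver, and a gap of 0.55 lay between them. The means were 4.47 ± 0.33 (SD, n = 4) in KO and 5.78 ± 0.31 (SD, n = 4) in WT livers, a difference of -1.32 ± 0.19 (SE of the limma fit). This probe set stood at percentile 68.4 of all probe sets by its mean, so it was the one Hbb-bh1 probe set that lay above the array median in all 8 livers.

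At the second probe set, 1437990_x_at, Hbb-bh1 measured 3.50, 3.08, 3.34 and 3.10 in KO livers 1 to 4, and 4.65, 4.71, 5.22 and 4.94 in WT livers 1 to 4. All 4 KO values lay below the median of their array, and all 4 WT values above it. The difference was -1.62 ± 0.15 (SE). At the third, 1450736_a_at, the values were 2.67, 2.80, 2.66 and 2.39 in KO livers 1 to 4, and 4.75, 3.82, 5.01 and 4.67 in WT livers 1 to 4. WT 2 was the lowest of its group here too, and KO livers were again all below their array medians. The difference was -1.93 ± 0.22 (SE). At both of these probe sets KO livers may lie at background, so the folds of 3.08 and 3.82 can be underestimates. Selection of the members on this same contrast can make them overestimates, and neither was tested.

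The 3 Hbb-bh1 probe sets shared their order among WT livers at the upper end, with WT 3 the highest in each. The size of the difference was not even across the arrays. At 1437810_a_at it was -0.97 between the livers of replicates 1 and 2 and -1.66 between those of replicates 3 and 4. At 1437990_x_at it was -1.39 and -1.86 in the same order, and at 1450736_a_at -1.55 and -2.32. No label says what sets these replicates apart. Among KO livers the same split divides KO 1 and KO 2, with Xist at 8.59 and 9.28, from KO 3 and KO 4, at 3.87 and 3.46. Among WT livers only WT 3 was high, at 8.67, with WT 1, WT 2 and WT 4 between 2.83 and 4.32. In KO livers sex and the replicate sets therefore cannot be told apart. Leaving out single arrays gave differences of -1.48 to -1.17 at 1437810_a_at, -1.71 to -1.51 at 1437990_x_at and -2.18 to -1.78 at 1450736_a_at. With the mean of Y-linked genes as a covariate the 3 differences were -1.37, -1.65 and -1.98.

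Hbb-y, the epsilon-like embryonic beta chain, stayed near the floor, meaning that the mean of the probe set over all 8 livers lay below 3.70, the median of all probe set means. Its 3 probe sets stood at percentiles 16.2 to 32.2, and none of their values in any liver reached the median of its array. At 1450621_a_at Hbb-y measured 2.35, 2.96, 2.46 and 2.51 in KO livers 1 to 4, and 3.02, 2.82, 3.22 and 2.77 in WT livers 1 to 4. The groups overlapped through KO 2, and the difference was -0.38 ± 0.15 (SE). At 1436717_x_at the values were 1.97, 1.78, 1.87 and 1.75 in KO livers, and 2.41, 2.04, 3.12 and 2.41 in WT livers, in the order of the replicates. The groups did not overlap, with a difference of -0.65 ± 0.20 (SE).

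The remaining Hbb-y probe set, 1436823_x_at, measured 2.01, 2.10, 1.58 and 1.70 in KO livers 1 to 4, and 2.22, 2.10, 3.57 and 2.35 in WT livers 1 to 4. WT 3 lay far above the other 7 livers, which were between 1.58 and 2.35. The difference of -0.71 ± 0.29 (SE) was -0.37 without WT 3, and that at 1436717_x_at was -0.44 without it. WT 3 was thus the highest WT liver at all 3 Hbb-y and all 3 Hbb-bh1 probe sets. It was also the single WT liver with high Xist. With the mean of Y-linked genes as a covariate the differences were -0.42 ± 0.14 at 1450621_a_at, -0.70 ± 0.17 at 1436717_x_at and -0.82 ± 0.19 (SE) at 1436823_x_at. In the WT group that covariate sets WT 3 against the other 3 livers. Since both groups lay at the low end of the scale, a level of Hbb-y above background is not shown in either, and no fold is given.

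Hba-x, the zeta-like embryonic alpha chain, measured 3.40, 3.84, 3.18 and 3.00 in KO livers 1 to 4, and 3.66, 3.38, 3.50 and 3.43 in WT livers 1 to 4, at its only probe set, 1448716_at. KO 2 was the highest and KO 4 the lowest of all 8 livers, so the WT values lay inside the KO range. The means were 3.35 ± 0.36 (SD, n = 4) in KO and 3.50 ± 0.12 (SD, n = 4) in WT livers, a difference of -0.14 ± 0.17 (SE). The probe set stood at percentile 45.5, near the floor, and 7 of the 8 values lay below the median of their array. The sign of the difference turned between replicates 1 and 2 (0.10) and replicates 3 and 4 (-0.38). A change of Hba-x was therefore not detectable at this signal, which is not the same as no change.

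Klf1 measured 9.09, 9.45, 8.44 and 8.80 in KO livers 1 to 4, and 9.84, 9.73, 9.91 and 9.95 in WT livers 1 to 4, at its only probe set, 1418600_at. The WT livers lay within 0.22 of each other, whereas the KO livers were spread over 1.01, with KO 3 the lowest. The means were 8.94 ± 0.43 (SD, n = 4) in KO and 9.86 ± 0.10 (SD, n = 4) in WT livers, a difference of -0.91 ± 0.19 (SE), and the groups did not overlap. This probe set stood at percentile 97.6, the brightest member, yet below the level of the top 1% of probe sets, which began at 10.5. The difference was -0.51 in replicates 1 and 2 and -1.31 in replicates 3 and 4. Leaving out single arrays gave differences of -1.08 to -0.75, and the covariate of Y-linked genes gave -0.97.

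Bcl11a has 7 probe sets, and they differed among themselves. The brightest, 1419406_a_at at percentile 78.1, measured 6.08, 6.08, 5.35 and 5.60 in KO livers 1 to 4, and 6.60, 6.12, 6.02 and 6.10 in WT livers 1 to 4. KO 1 and KO 2 lay level with the WT livers and KO 3 and KO 4 below them, and the difference was -0.43 ± 0.19 (SE). The second brightest, 1447335_x_at, had values between 5.24 and 5.59 in KO livers and between 5.31 and 5.49 in WT livers, with a difference of -0.003 ± 0.107 (SE). These 2 probe sets lay above the array median in all 8 livers, so the size of a Bcl11a difference depended on the probe set read.

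The other 5 Bcl11a probe sets lay close to or below the array median. At 1457072_at, the only 1 of the 7 whose groups did not overlap, Bcl11a measured 3.82, 3.18, 3.77 and 3.85 in KO livers 1 to 4, and 4.21, 3.97, 4.17 and 4.42 in WT livers 1 to 4. KO 2 was the lowest of all, and the difference was -0.54 ± 0.16 (SE). The groups overlapped at the other 4, with differences of -0.48, -0.36 and -0.24 at 1426552_a_at, 1456632_at and 1447334_at, and of 0.18 at 1453814_at, the sole member probe set with a higher KO mean. The last 2 of these lay near the floor. Markers of B cell precursors, another source of Bcl11a in newborn liver, gave 0 calls among 11 measured genes in limma. Of all genes, 0.841% fell and 0.308% rose. The median difference of these markers was -0.20. At an unadjusted p under 0.05 there were 3, but the share of all genes at that level was not counted, so nothing is read from it. The mean of that list ran between 4.36 and 4.60 in KO livers and between 4.32 and 5.10 in WT livers, with Ebf1 and Dntt near the floor. Its part in the Bcl11a values was not tested.

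**Figure D2:**
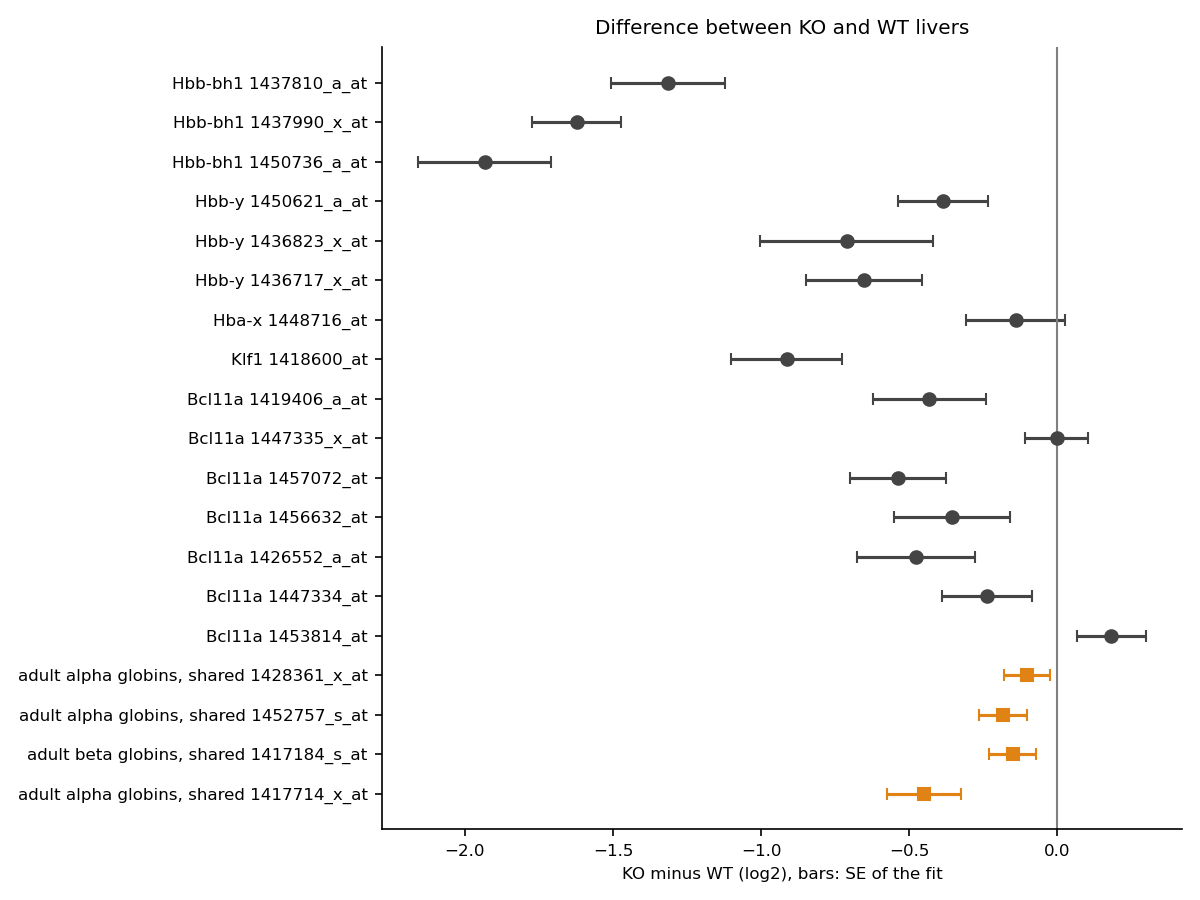
Difference between KO and WT livers (horizontal axis, log2, KO minus WT) for each member probe set (circles) and for the adult globin probe sets that are paired with several genes (squares). Bars are the SE of the limma fit on 4 against 4 livers. The 3 Hbb-bh1 probe sets lie farthest to the left, between -1.93 and -1.32, and the adult globin probe sets lie between -0.45 and -0.10.

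None of the 15 member probe sets lay near the top of the scale, taken as the top 1% of probe sets, and 7 lay near the floor: all 3 of Hbb-y, that of Hba-x, 1450736_a_at of Hbb-bh1, and 1447334_at and 1453814_at of Bcl11a. At 1450736_a_at only the KO livers lay below their array medians. The same held at 1437990_x_at of Hbb-bh1, which is not among the 7, since the label uses the mean over all livers. RMA values carry no detection or saturation call, so the place on the scale is the only measure of either. Probe sets at the top included those of hepatocyte genes such as Alb, and of adult globins that the annotation pairs with several genes. These adult globin probe sets are therefore not assigned to 1 gene. The brightest of these, 1428361_x_at, shared by adult alpha globins, was the highest of all 45037 probe sets, with 13.56 ± 0.05 (SD, n = 4) in KO and 13.66 ± 0.03 (SD, n = 4) in WT livers. In WT livers it was the highest value of each array.

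Differences of such probe sets can be compressed by the end of the scale. The difference at 1428361_x_at was -0.10 ± 0.08 (SE). Those at 1452757_s_at, also shared by adult alpha globins, and at 1417184_s_at, shared by adult beta globins, were -0.18 ± 0.08 and -0.15 ± 0.08 (SE), and these 2 ranked 7 and 10 from the top. At another shared alpha probe set, 1417714_x_at, which ranked 258 and measured 11.02 ± 0.23 in KO and 11.47 ± 0.11 in WT livers (SD, n = 4 each), the difference was -0.45 ± 0.12 (SE). In all 4 of them the KO values lay below the WT values without overlap, which held for 3.81% of all probe sets. None of them passed in limma, with adjusted p between 0.157 and 0.697. Saturation at the 3 brightest was not tested and cannot be read from these values.

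**Figure D3:**
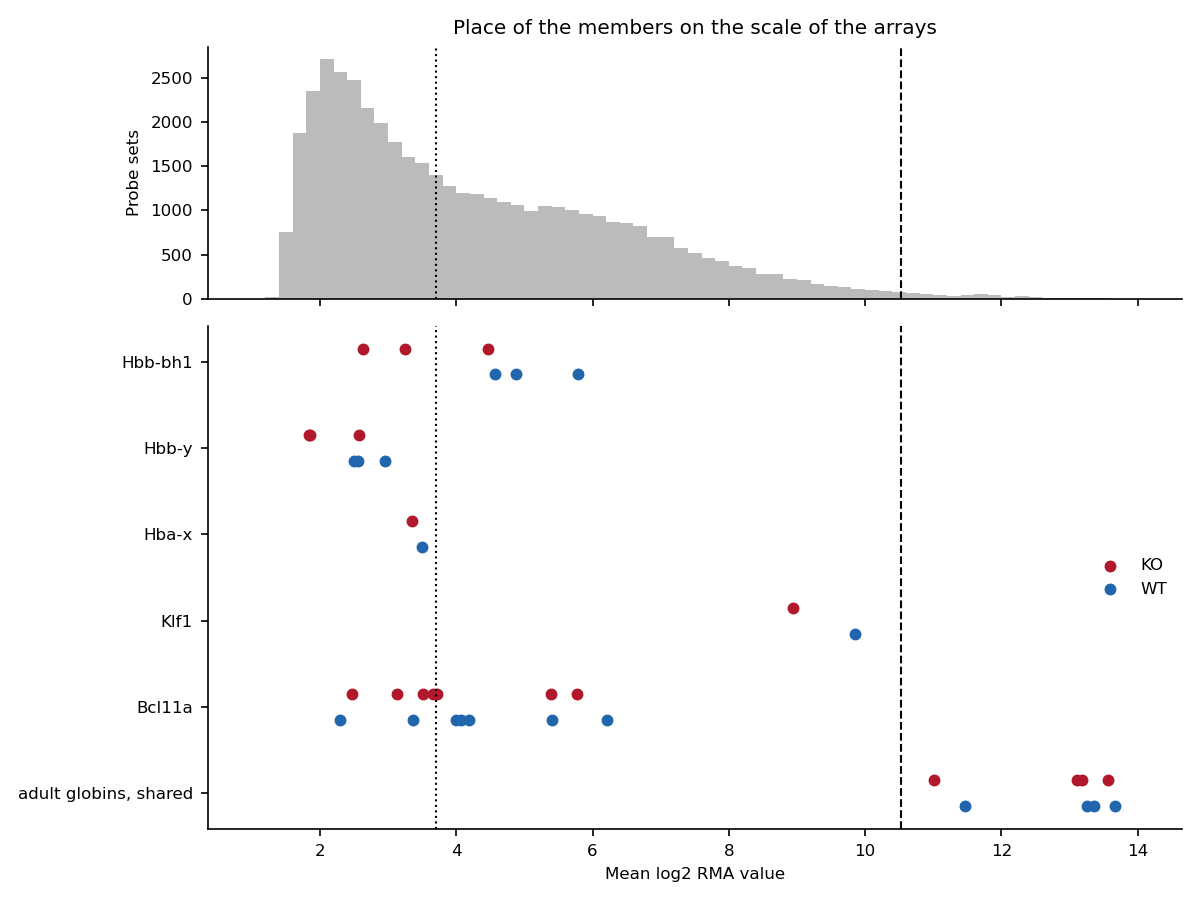
Upper panel, number of probe sets by mean log2 RMA value over 8 livers. Lower panel, mean of each member probe set and of the shared adult globin probe sets in KO (upper row of points) and WT livers (lower row). The dotted line is the median of all probe set means, 3.70, and the dashed line the start of the top 1%, 10.5. Hbb-y and Hba-x lie left of the dotted line in both groups, and the adult globin probe sets lie right of the dashed line.

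Of the adult globin genes, 3 of 8 listed had a probe set of their own. At the brightest such probe set of each 0 passed in limma in either direction, where 0.841% of all genes fell and 0.308% rose. At an unadjusted p under 0.05 there was 1, with no share over all genes counted. Hbb-b2, the minor adult beta chain, measured 7.67 ± 0.43 in KO and 8.56 ± 0.25 in WT livers (SD, n = 4 each) at 1427866_x_at, with a difference of -0.89 ± 0.21 (SE) and a limma adjusted p of 0.0965. At its other probe set, 1427865_at, which lay near the floor, KO values of 3.70 to 4.06 lay above WT values of 3.24 to 3.52, a difference of 0.59 ± 0.11 (SE) with a limma adjusted p of 0.0496. The 2 Hbb-b2 probe sets thus had opposite signs, and the one that passed has no level shown above background. Hba-a1 and Hba-a2, the adult alpha chains, had probe sets of their own near the floor only, with differences of 0.25 ± 0.13 and -0.19 ± 0.15 (SE). The suffix x marks sets with probes that may also bind other sequences and s sets shared by several transcripts, in the naming used by Affymetrix. Adult globin RNA is abundant in this tissue, and its part in the values of the x sets of Hbb-bh1, Hbb-y and Hbb-b2 was not tested.

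The embryonic globins were also set against the switch factors inside each liver. For this the value of one gene was subtracted from that of another at the brightest probe set of each, which removes what an array or a liver shares. The size of such a difference has no meaning between probe sets, but its shift between groups is the difference between the changes of both probe sets. Hbb-bh1 minus Klf1 was -4.82, -4.50, -4.07 and -4.52 in KO livers 1 to 4, and -4.18, -4.23, -3.69 and -4.21 in WT livers 1 to 4. The groups overlapped through KO 3, and the shift was -0.40 ± 0.20 (SE). Hbb-bh1 minus Bcl11a shifted by -0.88 ± 0.30 (SE) without overlap, with KO livers between -1.80 and -0.99 and WT livers between -0.94 and 0.21. The Hbb-bh1 probe set used differed by -1.32 between groups, and the others of this gene by -1.62 and -1.93. The Bcl11a probe sets also differed among themselves, so the size of both shifts depends on the probe sets used.

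Hba-x and Hbb-y gave positive shifts against Klf1. Hba-x minus Klf1 was -5.69, -5.61, -5.26 and -5.79 in KO livers 1 to 4, and -6.18, -6.35, -6.41 and -6.51 in WT livers 1 to 4, a shift of 0.77 ± 0.14 (SE) without overlap. Hbb-y minus Klf1 shifted by 0.53 ± 0.19 (SE) with overlap, and by 0.25 within replicates 1 and 2 against 0.81 within replicates 3 and 4. Both genes lie near the floor, where differences can be compressed, and Klf1 does not, and the Klf1 difference of -0.91 enters both shifts with its sign turned, so nothing is read from these 2 shifts about the globins. Against Bcl11a, Hba-x shifted by 0.29 ± 0.15 and Hbb-y by 0.05 ± 0.24 (SE), both with overlap.

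The erythroid markers as a group were lower in KO livers, in a list chosen with earlier results of these data known. Its counts are therefore a description and no independent support. All 19 measured genes of a list of 21 erythroid markers had lower KO means, where 46.7% of all genes did. Their median difference was -0.83 against 0.01 over all genes. In limma 8 of the 19 fell and 0 rose, where 0.841% of all genes fell and 0.308% rose. The mean of the list was 8.60, 8.81, 8.22 and 8.16 in KO livers 1 to 4, and 9.23, 9.25, 9.40 and 9.33 in WT livers 1 to 4. KO 3 and KO 4 were the lowest, as they were for Klf1, and none of the 19 lay near the floor. Among the 8, Trim10, a TRIM protein of red cell precursors, fell by 1.32 ± 0.21 (SE), and Ank1, the ankyrin of the red cell skeleton, fell by 0.92 ± 0.15 (SE). Ermap, a membrane protein of erythroblasts, fell by 0.76 ± 0.12 (SE), and Tspan33, a tetraspanin, fell by 0.80 ± 0.13 (SE). Their limma adjusted p lay between 0.0366 and 0.0391. The count of 8 was 0 without KO 3, KO 4, WT 3 or WT 4, 1 without WT 1, 5 without KO 1 or WT 2, and 14 without KO 2.

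The members were set against that list within each liver in the same way. Klf1 minus the erythroid marker mean was 0.49 ± 0.20 in KO and 0.56 ± 0.07 in WT livers (SD, n = 4 each), a shift of -0.06 ± 0.10 (SE), with the KO values on both sides of the WT values. Hbb-bh1 minus the same mean was -4.33, -3.86, -3.86 and -3.89 in KO livers 1 to 4, and -3.56, -3.75, -3.17 and -3.59 in WT livers 1 to 4. The groups did not overlap, and the shift was -0.46 ± 0.17 (SE), although KO 2 and WT 2 were 0.10 apart. Bcl11a shifted by 0.42 ± 0.18 (SE) with overlap, and Hba-x by 0.71 ± 0.10 and Hbb-y by 0.47 ± 0.16 (SE) upwards. Hba-x and Hbb-y lie near the floor, where a flat value less a list mean that differs by -0.85 gives a positive shift by subtraction alone, so these 2 shifts show no rise of either gene. The part that the lower erythroid level has in the member differences was not tested.

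**Figure D4:**
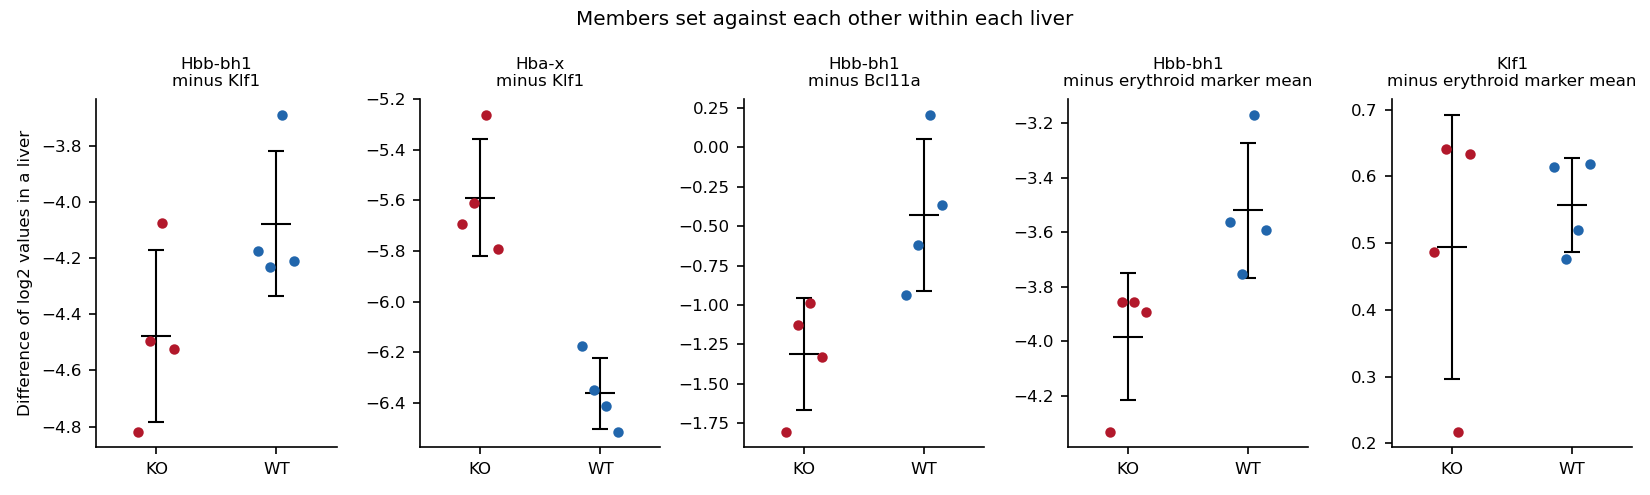
Difference between the log2 values of 2 genes, or of a gene and the mean of 19 erythroid markers, within each liver (vertical axis, scale differs between panels), KO left and WT right. Points are livers, and bars the mean and SD of 4. Hbb-bh1 against the erythroid mean and Hba-x against Klf1 show groups that do not overlap, in opposite directions, with Hba-x near the floor and the Klf1 difference of -0.91 in the second, while Klf1 against the erythroid mean overlaps fully.

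Known target genes of Klf1 were listed as well, also with earlier results of these data known, so their counts are a description. Of 13 measured, 11 had lower KO means, where 46.7% of all genes did, with a median difference of -0.92. In limma, where 0.841% of all genes fell and 0.308% rose, 3 fell and 0 rose. These were Dmtn, a protein of the red cell skeleton, which fell by 1.26 ± 0.17 (SE), Icam4, a red cell adhesion molecule, which fell by 1.24 ± 0.19 (SE), and Ermap. Of the 13, 5 are also in the erythroid list. Targets that did not pass included E2f2, a factor of the cell cycle of erythroblasts, at -0.96 ± 0.20 (adjusted p 0.0666). Epb42, Kel, Slc4a1, Add2, Alas2 and Cd44 did not pass either, and differed by -1.11, -1.07, -1.05, -0.92, -0.66 and -0.23. Tfr2, Bcam and Aqp1 differed by 0.11, 0.03 and -0.12. The targets that did not pass were named after their values were seen. The count of 3 was 0 without KO 3, KO 4, WT 3 or WT 4 and 9 without KO 2.

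Of 30 other regulators of the globin switch that were measured, 23 had lower KO means, where 46.7% of all genes did. Their median difference was -0.20. This list too was chosen with earlier results of these data known, and its counts are a description. In limma, where 0.841% of all genes fell and 0.308% rose, 3 fell and 0 rose. Of the 30, 2 are also in the erythroid list, Gata1 and Tal1. Nfe2, the erythroid leucine zipper factor that acts at globin control regions, measured 7.77 ± 0.24 in KO and 8.76 ± 0.05 in WT livers (SD, n = 4 each), a difference of -0.98 ± 0.12 (SE) and a limma adjusted p of 0.0204. Zfpm1, the cofactor of Gata1, fell by 0.80 ± 0.14 (SE), and Eif2ak1, the kinase that couples translation of globin to haem, fell by 0.76 ± 0.14 (SE), each with a limma adjusted p of 0.0441. Nfe2 passed in 4 of the 8 fits that leave out 1 array, Zfpm1 in 1 and Eif2ak1 in 2. The count of 3 was 0 without KO 3, KO 4, WT 3 or WT 4 and 1 without KO 1 or WT 1.

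Several other regulators are given although they did not pass, and were named after their values were seen. Sox6, which acts with Bcl11a to silence embryonic globin in the mouse, differed by -0.62 ± 0.15 (SE, adjusted p 0.105), Gata1 by -0.83 ± 0.20 (adjusted p 0.101) and Tal1 by -0.84 ± 0.21 (adjusted p 0.116). Myb differed by 0.01 ± 0.17, and the deacetylase and remodeller subunits Hdac1, Hdac2, Mbd3 and Chd4 by -0.49, -0.42, -0.11 and -0.10. Lin28b, a fetal-stage RNA-binding protein, lay near the floor at 1.60 in KO and 1.71 in WT livers. Of the 7 neighbours of the alpha globin genes 1 fell in limma, where 0.841% of all genes did, and the list median was -0.12. This was Snrnp25, a spliceosome protein gene, which fell by 0.73 ± 0.14 (SE) with a limma adjusted p of 0.0499. It passed in 1 of the 8 fits without an array, that without WT 2.

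Markers of other cells in the newborn liver gave 0 calls in limma in each list, where 0.841% of all genes fell and 0.308% rose. Their median differences were -0.18 for 10 neutrophil genes, -0.12 for 6 megakaryocyte genes, 0.19 for 9 macrophage genes, 0.07 for 9 hepatocyte genes and -0.06 for 7 stem and progenitor genes. The numbers at an unadjusted p under 0.05 were 0, 1, 1, 2 and 1 in the same order. The share of all genes at that level was not counted, so nothing is read from these numbers. The gene with the lowest p was Ltf in the neutrophil list (-0.47 ± 0.22, SE), Vwf in that of megakaryocytes (-0.45 ± 0.18) and C1qa in that of macrophages (0.37 ± 0.16). It was Fgb in the hepatocyte list (0.31 ± 0.09), Meis1 in that of stem and progenitor cells (0.43 ± 0.15) and Ebf1 in that of B cell precursors (-0.63 ± 0.20). The hepatocyte markers were bright in both groups, with list means between 12.59 and 12.71 in KO and between 12.51 and 12.56 in WT livers, and 8 of the 9 lay near the top of the scale, where differences can be compressed, as did 4 of the 10 neutrophil genes. The counts and medians of these lists are therefore weak measures of change. The other hepatocyte gene, the nuclear receptor Hnf4a, was named after its values were seen and differed by 0.42 ± 0.16 (SE), with a limma adjusted p of 0.345.

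The genes whose profile over the 8 livers lay nearest to that of Hbb-bh1 were Dmtn, Icam4, Slc22a4, Isg20 and Tmcc2. Slc22a4 is an organic cation transporter and Isg20 an interferon-induced exonuclease. Each profile was centred on its own mean, and nearness was the root mean square distance over 8 livers, which was 0.14, 0.17, 0.20, 0.20 and 0.22 log2 units in that order, where the Hbb-bh1 profile itself lay 0.71 from its own mean. All 5 were lower in KO livers, by 1.03 to 1.28 on the log2 scale, which follows from the choice. For Hba-x the nearest were Scn8a, Batf3 and Tafa1, at 0.07, 0.08 and 0.08 from a profile that lay only 0.24 from its mean. For Hbb-y they were Srebf1, Atp23 and Grap2, at 0.08, 0.09 and 0.09 from a profile that lay 0.28 from its mean. None of the Hba-x and Hbb-y neighbours passed the threshold in limma, with adjusted p between 0.196 and 0.854.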

How the data were processed

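Total RNA was extracted from liver with Trizol, labelled with biotin and measured on Affymetrix arrays, per the labels' protocols. The authors deposited log2 values, which per the submitters' processing notes come from RMA. Its version and settings are not given here, since no source used states them. RMA gives all arrays 1 distribution of probe values, so a change in total mRNA cannot be seen. Arrays give no read depth, and their number, 4 against 4, limits the precision.

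From 45101 probe sets 64 array controls were left out. The annotation pairs 34945 of the 45037 left with 1 gene, 932 with several, and does not list 9160. Symbols were updated through gene identifiers, of which 34741 were found in the gene table of GRCm38.p6. The probe set with the highest mean stood for its gene. The fit of KO against WT used limma 3.58.1 under R 4.3.3 (two-sided eBayes test after lmFit, without covariates), with Benjamini-Hochberg adjustment over 45037 probe sets and a threshold of 0.05. The fit was tested on simulated data with changes put in, and with noise drawn independently for each probe set and liver. It recovered 14.9% of log2 changes of 0.5, 86.6% of changes of 1 and 100% of changes of 2. A difference near 0.5 that did not pass is therefore not shown to be absent. No variation shared between probe sets of a liver, by sex or by replicate set was simulated, so these shares may not hold for the real arrays.

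The members and the 11 gene lists (137 entries) were chosen with earlier results of these data known. Genes named are all members, up to 4 genes past the threshold of each list or that with the lowest p, the adult globins, and the nearest profiles of the embryonic globins, with clone names left out. Others are said to be named after their values were seen. Alternatives were a filter on dim probe sets, normalization, variance models, array weights, blocks, a sex covariate, the probe set rule and leaving out each array. The design counts each array as 1 mouse. No protein sequence is shown.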

Additional observations from a re-analysis of the deposited data

Results flagged for a closer look

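In 5 of 30 groups of 4 livers, 1 group for each genotype and member probe set, 1 liver lay farther from its group than Dixon's 95% critical value allows, where chance gives about 1 in 20. KO 2 was high among KO livers for Hbb-bh1 at 1437810_a_at, with 4.95. For Bcl11a, KO 2 was low among KO livers at 1457072_at, with 3.18, and KO 1 was low among them at 1456632_at, with 3.39. WT 4 was high among WT livers at 1456632_at, with 4.68, and WT 1 was high among them at 1419406_a_at, with 6.60. Groups of 4 give little basis for calling a liver unusual, and no cause was tested.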

How the results depend on the processing

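Of 263 differences of member probe sets under an alternative, 255 kept their direction and 255 moved by less than 1 SD between livers. The trended variance, the filter on dim probe sets and the balanced blocks leave a difference as it was. Those differences are among the 263 and could not move. The 8 sign changes were Hba-x in replicates 1 and 2 alone and 7 of Bcl11a 1447335_x_at, whose difference was near 0, and the 8 larger moves were all in replicates 1 and 2 alone or 3 and 4 alone. With all arrays 343 probe sets, 3 members, 0 adult globins, 3 switch regulators, 3 Klf1 targets and 8 erythroid markers passed. Leaving out single arrays gave 9 to 489 probe sets, 1 to 4 members, 0 to 1 adult globins, 0 to 4 regulators, 0 to 9 targets and 0 to 14 markers. The shift of Hbb-bh1 minus Klf1 ran from -0.536 to -0.273, of Hba-x minus Klf1 from 0.664 to 0.841, of Hbb-y minus Klf1 from 0.397 to 0.652 and of Hbb-bh1 minus Bcl11a from -1.05 to -0.672. These shifts were checked by alternatives chosen after seeing the data. Within replicates 1 and 2, 4 probe sets passed and 0 members, regulators, targets or markers, with 2 livers a group, and Hbb-y minus Klf1 shifted by 0.252. Within replicates 3 and 4, also with 2 livers a group, 461 probe sets, 4 members, 6 regulators, 8 targets and 14 markers passed. That shift was 0.806 there. With the replicate block 15 probe sets passed, 1 member (Hbb-bh1 1437990_x_at) and 0 regulators, targets or markers. Same-numbered livers deviated together with correlations of -0.004 to 0.259 and KO 1 was closest to WT 2, so the numbers are not shown to pair the livers. By replicate sets, all 8 correlations of a KO with a WT liver across replicates 1 and 2 against 3 and 4 were negative (-0.238 to -0.034). Inside a set 7 of 8 were positive (up to 0.259). Deviations were taken from the group mean, so positive correlations inside sets go with negative ones across sets by construction. The negative ones are therefore no separate evidence. Array weights gave 914 probe sets, 4 members, 1 adult globin, 8 regulators, 9 targets and 19 markers. The Y-linked mean gave 552 probe sets, 4 members, 5 regulators, 8 targets and 13 markers. Klf1 did not pass in the main fit but passed under 7 of the 18 alternatives for member probe sets. Quantile normalization once more gave 1 regulator and 4 markers, the filter on dim probe sets 5 targets, the 2 sets as a block 514 probe sets, 4 members (Klf1 besides Hbb-bh1), 6 targets and 13 markers, and the mean of all probe sets of a gene 6 regulators, 8 targets and 12 markers. The causes of these changes were not tested. Signal near the floor limits Hbb-y and Hba-x. Of the 3 adult globins with a probe set of their own, 2 lay near the floor and 0 near the top. The adult globin probe sets shared by several genes lay near the top, where differences can be compressed, which was not tested.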
